A study of Rattus norvegicus with 8 samples.

Results

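DNA methylation was measured at single cytosines in rat brain, and the regions described here are saturated tiles: 1 kb windows of the genome in which CG methylation was near its ceiling in every library of both brain regions. They were found on chromosomes 1 to 20 from CpG dyads, the paired cytosines of both strands at a CG, that had 10 or more calls in all 8 libraries. A window was a candidate if it held 3 to 10 such dyads and if no window with 21 or more of them lay within 2 windows, and a candidate was saturated if its level, methylated calls over all calls, was 90% or more in each of the 8 libraries. Of 137842 tiles with a usable dyad, 77785 were candidates and 11697 were saturated, which is 15% of candidates and 8.49% of all tiles. The saturated tiles held 58759 of 761556 dyads (7.72%), and the other 66088 candidate tiles served as the comparison. The tiles were selected on the CG levels of all 8 libraries, so those levels are described and not tested.

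Male Sprague Dawley rats, 2 months old at the start, were fed DHA (docosahexaenoic acid, of the omega-3 type) over 6 weeks, and the libraries came from their hippocampus (4) and hypothalamus (4). All 8 share the diet, the chow-fed group of the study was not analysed here, the labels' treatment text also names fructose without tying it to a library, and the labels name no animals, so p-values measure the spread between libraries, which may be technical. The assay was reduced representation bisulfite sequencing (RRBS), which cuts DNA at CCGG with the enzyme MspI and reads the fragment ends after bisulfite has turned unmethylated cytosine into uracil. Both tissues are mixtures of neurons and glia, and a level is an average over all their cells. Total calls per library ranged from 178178404 (hypothalamus 3) to 625653602 (hippocampus 4), and 4 libraries, hippocampus 3 and 4 and hypothalamus 1 and 4, had higher levels at CC cytosines, which are seldom methylated, than the others (1.04% to 1.93% against 0.329% to 0.432% in saturated tiles).

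In mammals the maintenance methyltransferase DNMT1 copies CG methylation at each cell division, and most CpGs outside promoters and enhancers are kept methylated. CpG-rich promoters of active genes stay free of it, whereas promoters of germline genes and of genes silent in a tissue can be fully methylated. Neurons also carry methylation outside CG, mainly at CA, which DNMT3A adds after birth.

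The build of the deposited coordinates was rn5, per the submitters' processing notes, and no annotation of that build was used. Genes were therefore found by sequence, a step chosen after values were seen. The spacing and class of all listed cytosines in 50-base windows was compared with the RefSeq promoter windows of build GRCr8, 250 bases before a gene's annotated start and 50 after it. Of 48796 windows with a single match on each side, 99.2% lay on the same chromosome in both builds, and 91.5% of those had the same orientation. A single match was judged among the promoter windows and the listed cytosines, not over the whole genome. The match placed dyads of 1249 promoters in candidate tiles, 989 of protein-coding genes and 260 of long non-coding RNA genes. Of these, 28 protein-coding promoters (2.83%) and 17 long non-coding RNA promoters (6.54%) lay in saturated tiles. Counted by tile, 45 of 1304 promoter-matched candidate tiles (3.45%) were saturated, against 15% of all candidate tiles, and 65.5% of the promoter-matched ones had a mean level under 20%, against 8.91% of all candidates. A matched promoter was therefore less often in a saturated tile than a candidate tile was saturated, as a description without a test. The median mean level of the candidate tiles with a protein-coding promoter was 1.77%, and that of the tiles with a long non-coding RNA promoter was 67.8%. Only 0.385% of the saturated tiles had a matched promoter, so most of the tiles have no gene named here.

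The sequences of 7 of these promoters are shown, one or more from each kind of gene described next, to place the measured dyads before the start. The calls were made at rn5 positions and carried to these sequences by the match of cytosine patterns. They are RefSeq sequences (GRCr8), each on the strand of its gene and ending before the annotated start. Capitals mark the matched CpG dyads inside the saturated tile that had 10 or more calls in all 8 libraries. A CG in lower case may be unmatched and need not lack calls.
Aurkc: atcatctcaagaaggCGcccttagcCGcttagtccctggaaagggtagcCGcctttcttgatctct
Tex101: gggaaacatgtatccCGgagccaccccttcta
Scn10a: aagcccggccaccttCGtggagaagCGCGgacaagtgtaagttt
Ppp1r27: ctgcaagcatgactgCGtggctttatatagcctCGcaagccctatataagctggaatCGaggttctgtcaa
Adat3: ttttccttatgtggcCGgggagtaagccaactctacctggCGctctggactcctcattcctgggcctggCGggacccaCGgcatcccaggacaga
Rpl37l4: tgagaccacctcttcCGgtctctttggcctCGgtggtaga
C10h17orf99: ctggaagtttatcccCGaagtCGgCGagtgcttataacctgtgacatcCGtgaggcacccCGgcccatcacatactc
The stretches lie at chr1:75883069-75883134 (Aurkc, minus strand), chr1:89387514-89387545 (Tex101, minus), chr8:128340316-128340359 (Scn10a, minus), chr10:106327861-106327931 (Ppp1r27, minus), chr7:9761172-9761266 (Adat3, minus), chr3:52500407-52500446 (Rpl37l4, plus) and chr10:103521104-103521180 (C10h17orf99, plus), all in GRCr8.

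Genes known from the germline were among them. Aurkc, the aurora kinase of meiotic cells, had 3 promoter dyads, at positions -226 to -192 from the start (the gene's first base being 0), in the saturated tile chr1:71359001-71360000 (rn5). Summed over these dyads, hippocampus 1 to 4 had 97.1%, 96.8%, 96.3% and 97.2%, and the corresponding hypothalamus libraries 94.1%, 94.9%, 100% and 93.8%. All 8 libraries were above 90%, and the tissues overlapped (96.9% ± 0.406 and 95.7% ± 2.91, SD, n = 4 each). Tex101, which encodes a surface glycoprotein of male germ cells, had 1 promoter dyad, at position -190, in the tile chr1:82791001-82792000. Hippocampus had 94.1% ± 1.61 there and hypothalamus 92.9% ± 5.38, over 16 to 51 calls per library.

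The next promoters belong to a channel, a structural protein, a growth factor, a receptor and protease inhibitors. Scn10a, the voltage-gated sodium channel of pain-sensing peripheral neurons, had 3 dyads at positions -46 to -34 in the tile chr8:127619001-127620000. Hippocampus had 97.2% ± 1.0 and hypothalamus 96.5% ± 2.79, with no library under 93.8%. Tectb, the beta-tectorin of the inner ear's tectorial membrane, had 1 dyad at position -152 at 90.1% ± 3.18 and 91.3% ± 3.46. Fgf7, the keratinocyte growth factor, had 1 dyad at position -118 at 91.2% ± 2.88 and 90.1% ± 4.70. Gprc5d, an orphan receptor known from plasma cells, had 1 dyad at position -62 at 94.4% ± 1.40 and 93.5% ± 4.75. The protease inhibitors Spink7 and Spink10, of the Kazal family, lay in separate saturated tiles of chromosome 18, with 1 dyad at a mean of 95.5% and 2 dyads at a mean of 95% over the 8 libraries.

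A further set carried names of ribosomal proteins. Rpl34l2, Rpl37l2, Rpl37l4 and Rps26-ps12 are named for their likeness to genes of large and small ribosomal subunit proteins, and near-identical copies can share reads, so their values are less certain. Over the 8 libraries their promoter dyads had mean levels of 96.1%, 94.0%, 96.2% and 91.2%. For Rpl37l4 the 8 libraries ran from 94.2% to 98.5%, over 42 to 177 calls each. Timm8a2, of the Tim8 family of mitochondrial import chaperones, had 1 dyad close to its start at a mean of 89.8%, the lowest of the 45 promoters, in a tile whose own mean was 94.2%.

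Other promoters belonged to genes of general or neuronal roles. Adat3, a subunit of the tRNA adenosine deaminase, had 4 dyads at positions -124 to -61 with 94.1% ± 1.80 in hippocampus and 92.4% ± 3.44 in hypothalamus. Lrfn1, a synaptic adhesion protein, had 4 dyads with 92.9% ± 1.62 and 90.6% ± 2.82. Art3, of the ADP-ribosyltransferase family, had the highest promoter level, with a mean of 97.8% over 4 dyads within 33 bases of its start. In Ppp1r27, which encodes a regulatory subunit of protein phosphatase 1, the 6 dyads around the start had levels of 94.2%, 94.3%, 96.4% and 95.3% in hippocampus and 91.1%, 89.6%, 91.3% and 92.3% in hypothalamus. The dyad at position -14 was the lowest of the 6, at a mean of 83.8%. Over the 6 dyads summed, the tissues did not overlap, while taken singly they overlapped at every dyad except the one at position -56. All 4 hypothalamus libraries lay below all 4 hippocampus libraries in 2 of the 45 promoters and above them in 0, where 3.43% and 14.2% of all candidate tiles did so, and nothing is read from these counts. Over all 45 promoters the mean level of the matched dyads had a median of 95.1%, and in 28 of them the level summed over these dyads was 90% or more in every library, while single dyads could be lower. The remaining named promoters were Albfm1, Cmc1l1, Znf783 and C10h17orf99, at means of 93.5% to 95.2%, and those of 7 protein-coding and 17 long non-coding RNA genes that RefSeq lists by locus number only.

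**Figure D1:**
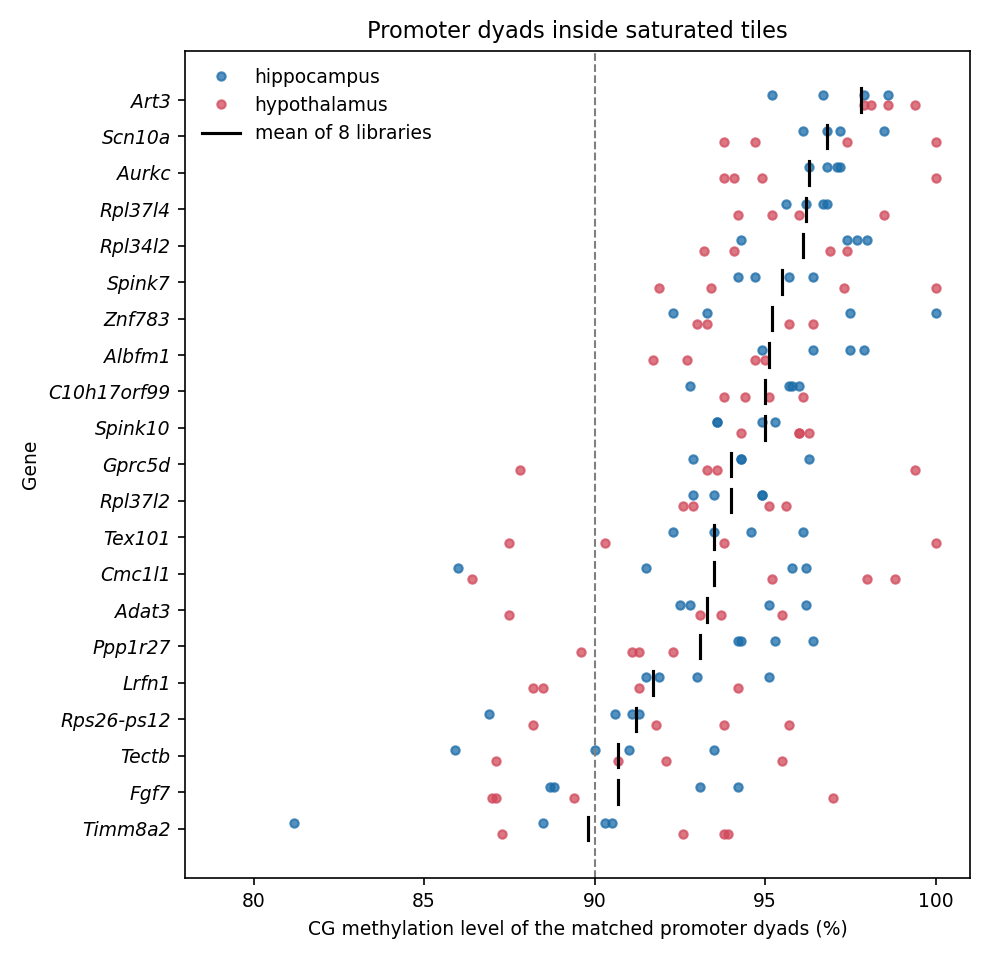
CG methylation level (%) of the promoter dyads matched inside saturated tiles for 21 protein-coding genes, with each point a library (4 hippocampus, 4 hypothalamus), the black bar the mean of 8 and the dashed line 90%. Means run from 89.8% (Timm8a2) to 97.8% (Art3), and in Ppp1r27 the hypothalamus libraries lie below the hippocampus libraries.

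Across all saturated tiles the level lay in a narrow band. The mean of a tile over the 8 libraries had a median of 95%, with the lowest at 90.6% and the highest at 98.9%. Within a tile the range over libraries had a median of 4.45 percentage points and reached at most 10. In 1301 tiles every library was at 95% or more, 109 tiles had a mean of 98% or more, and no tile was at 100% in all libraries, although 750 reached 100% in at least 1. The number of dyads in a tile made little difference: the saturated share was 14.9% of candidates with 3 dyads, 15.7% with 8 and 13.5% with 10.

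By library, mean tile levels of 94.9%, 94.6%, 95.2% and 95.4% were found for hippocampus 1 to 4, and of 94.8%, 94.6%, 94.8% and 95.5% for hypothalamus 1 to 4. The tissue means were 95% ± 0.380 and 94.9% ± 0.367 (SD, n = 4 each), and the rule itself keeps every library between 90% and 100%. In the shallowest library, hypothalamus 3, a saturated tile had a median of 104 calls, against 159 to 367 in the others, and its tiles spread most, from 90.8% at the 5th percentile to 98.6% at the 95th. The lowest number of calls behind a level was 30, at which 90% has an exact 95% binomial interval of 73.5% to 97.9%, for counting error only. The tiles with the highest mean among those with 10 dyads were chr7:18697001-18698000 (98.1%), chr5:60896001-60897000 (98%) and chr15:78595001-78596000 (97.9%), and in these 3 no library fell under 96.1%.

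**Figure D2:**
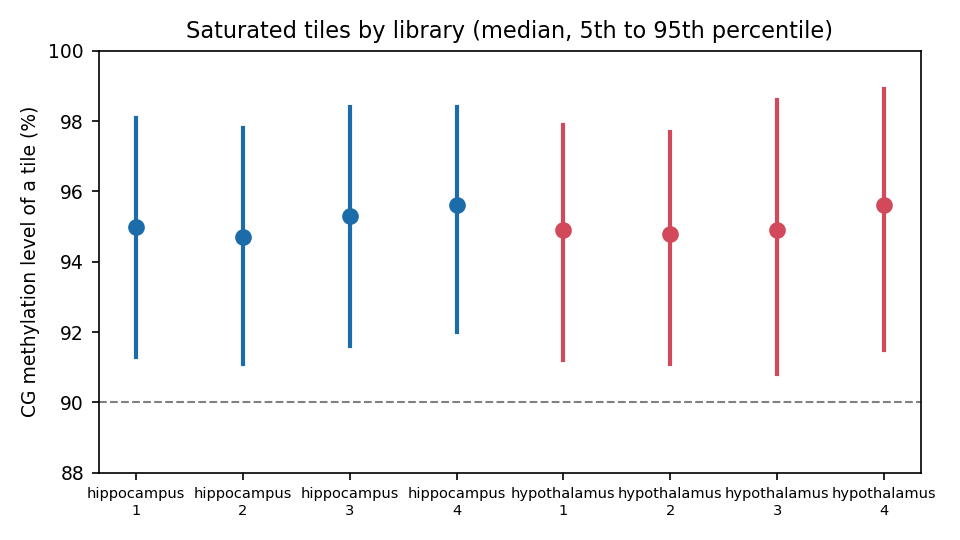
CG methylation level (%) of the 11697 saturated tiles in each library, as median (point) and 5th to 95th percentile (line), with the 90% threshold dashed and an axis that starts at 88%. Medians lie between 94.7% and 95.6%, and the line of hypothalamus 3, the library with the fewest calls, runs from 90.8% to 98.6%.

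The threshold divided tiles that differed little. Of 22277 candidates with a mean of 90% or more, 10580 were not saturated, and 4350 of these were under 90% in 1 library only. That library was hypothalamus 3 in 1349 cases (31.0%) and hippocampus 4 in 153 (3.52%). Just inside the threshold, chr1:11786001-11787000 and chr1:42512001-42513000 had 90% in their lowest library, as had chr1:18182001-18183000, while their means were 92.9%, 93.3% and 95.3%. Just outside it, chr20:42779001-42780000, chr10:16157001-16158000 and chr5:79062001-79063000 had 89.99%, 89.98% and 89.98%, with means of 92.2%, 92.3% and 91.9%.

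Tiles chosen on the levels of one tissue alone were then read in the other, as a description. Of 16036 tiles at 90% or more in all 4 hippocampus libraries, 11697 (72.9%) were so in all 4 hypothalamus libraries, and the mean hypothalamus level of all 16036 was 93.9%. Of 15323 tiles chosen in hypothalamus, 76.3% were saturated in hippocampus, and the mean hippocampus level of all 15323 was 93.5%. Among candidates as a whole 19.7% and 20.6% passed in all 4 hypothalamus and all 4 hippocampus libraries. With at least 200 calls in every library the shares were 78.9% of 1230 and 78.2% of 1241 tiles. Of the hippocampus-chosen tiles 18 had a hypothalamus mean under 80%, and of the hypothalamus-chosen tiles 274 had a hippocampus mean under 80%, which was not tested as a difference. When 7 libraries chose the tiles, the one left out was at 90% or more in 89.6% (hypothalamus 3) to 98.7% (hippocampus 4) of them.

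Between the tissues, 44.8% of the saturated tiles were higher in hypothalamus and the median difference, hypothalamus minus hippocampus, was -0.164 points. In the other candidates 59.0% were higher in hypothalamus with a median of +0.940 points. All 4 hypothalamus libraries lay above all 4 hippocampus libraries in 253 saturated tiles (2.16%), where 14.2% of all candidates did so, and below them in 338 (2.89%), where 3.43% of all candidates did. The rule bounds these differences, since no saturated tile can differ by more than 10 points, so nothing is read from the counts. The largest difference toward hypothalamus was at chr11:72606001-72607000, with 91.16%, 90.38%, 93.33% and 91.08% in hippocampus and 97.95%, 98.43%, 96.15% and 99.44% in hypothalamus (+6.50 points). Next were chr12:14211001-14212000 (+5.58) and chr15:45919001-45920000 (+5.53). Toward hippocampus the largest was chr17:69491001-69492000, with 97.1% ± 1.37 against 91.7% ± 1.58 (-5.37 points, over 39 to 143 calls), followed by chr6:20993001-20994000 (-5.26) and chr5:151451001-151452000 (-4.76).

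Methylation around the tiles was high as well, in tiles whose CG levels did not enter the choice of the tile beside them. Their dyad numbers did enter it, and neighbours that were themselves saturated were left out. In the 3599 adjacent tiles that were not themselves saturated hippocampus had a CG level of 77.5% ± 0.794 and hypothalamus one of 79.2% ± 1.21 (SD, n = 4 each). Next to other candidate tiles, again with saturated neighbours left out, it was 46.4% ± 0.786 and 47.4% ± 2.62 (25295 tiles). The difference of 31.5 points had the same sign in 8 of 8 libraries (SD 1.22). It was 20.4 points when only adjacent tiles with 3 to 10 dyads were counted. At a distance of 3 to 5 tiles the difference was 10.3 points, with 52.9% against 42.7%. These differences are a description, since CG levels of the same 8 libraries defined the classes. Adjacent tiles can also share reads that cross their border.

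Inside the tiles, 16414 dyads had 10 or more calls in 1 to 7 libraries and so had not entered the tile level. They were at 91.1% ± 0.515 in hippocampus and 91.1% ± 1.64 in hypothalamus, against 49.6% ± 0.809 and 49.5% ± 2.58 for such dyads of other candidate tiles. The difference was 41.5 points (SD 2.34 over 8 libraries). It is given as a description, since these dyads lie in the selected tiles and can share reads with the dyads that chose them. Each library contributed the dyads it listed, from 4185 in hypothalamus 3 to 13992 in hypothalamus 2. Candidate tiles with a mean of 80% to under 90% lay between, with 83.5% at such dyads and 73.2% in adjacent tiles.

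**Figure D3:**
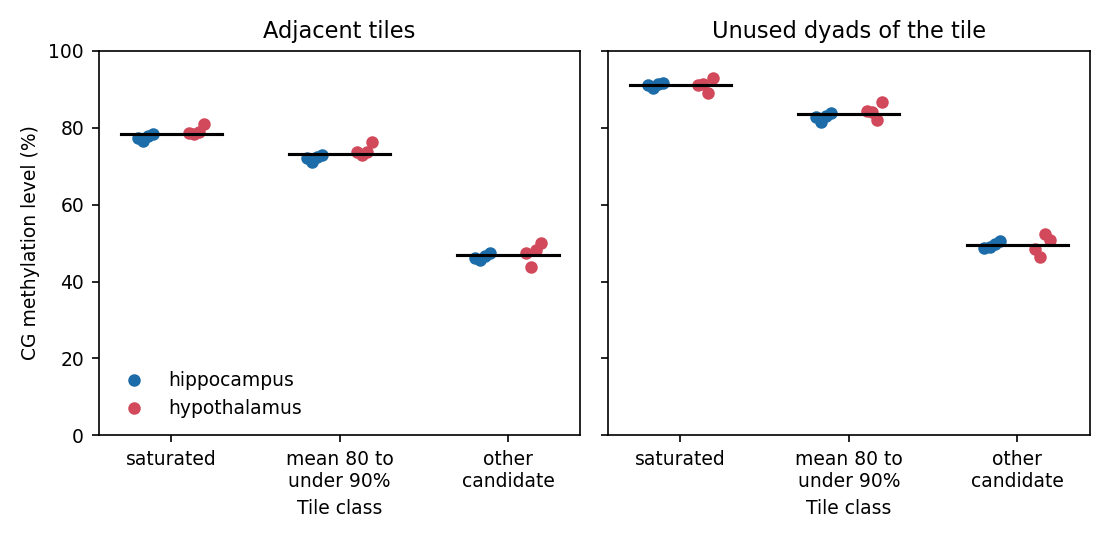
CG methylation level (%) in adjacent tiles that are not saturated (left) and at dyads of the tile that lacked calls in some library (right), for saturated tiles, candidates of mean 80% to under 90% and all other candidates. Points are libraries and bars the mean of 8; the saturated class is at 78.4% and 91.1%, the other candidates at 46.9% and 49.5%.

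Saturated tiles also lay near each other. Of candidate tiles directly next to a saturated one, 31.7% were saturated, against 10.7% of candidates next to another candidate tile. The shares were 20.9% and 12.4% at a distance of 2 tiles, 16.0% and 12.9% at 10, and 14.4% and 13.2% at 100, which is a description without a test. Runs were short: 10954 tiles stood alone, 347 runs held 2 tiles, 15 held 3 and 1 held 4. Only an adjacent candidate tile can extend a run, and counted from each of the 11697 saturated tiles there were 2398 such neighbours. Run lengths are thus bounded by which tiles were candidates. The run of 4, chr5:138935001-138939000, had tile means of 94.7%, 94.6%, 95.5% and 94.8%. The next runs in the order of the genome, chr1:47941001-47944000 and chr3:176656001-176659000, had 3 tiles each with means of 94.1% to 97.2%. By chromosome the saturated share of candidates ran from 12.5% on chromosome 10 to 18.5% on chromosome 15, and by distance from the chromosome ends it stayed between 14.7% and 15.5%.

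**Figure D4:**
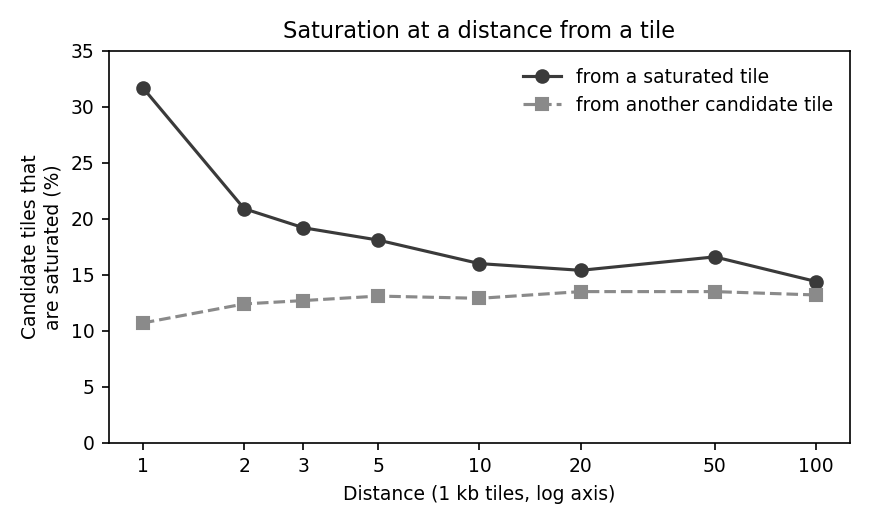
Share (%) of candidate tiles that were saturated at a given distance, in 1 kb tiles on a log axis, from a saturated tile (circles) or from another candidate tile (squares). The shares are 31.7% and 10.7% at 1 tile and 14.4% and 13.2% at 100 tiles.

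Within the tiles single dyads were mostly as full as the tile. Of the 58759 dyads 60.0% had a mean of 95% or more, 7.93% were under 90% and 245 (0.417%) under 80%, spread over 241 tiles. Only 1225 tiles had every dyad at 90% or more in every library. The CG level was also read along runs of listed cytosines that began with a CpG after a gap of over 30 bases. At that first CpG it was 94.6% ± 0.514 (SD, n = 8), and it was 95.6% ± 0.342 in the next 24 bases and 94.5% ± 0.325 from base 75 on. Both strands of a dyad were listed in 9.26% to 15% of dyads by library, and there the plus and minus strands had pooled levels of 94.6% and 94.6% in hippocampus 1 and, at the widest gap, 94.5% and 94.3% in hypothalamus 3.

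A few dyads went against their tile. The lowest, chr7:96603948-96603949, stood at 0%, 5%, 78.5% and 73.8% for hippocampus 1 to 4, and at 0%, 0%, 86.7% and 58.6% for hypothalamus 1 to 4. The other dyads of its tile had means of 86.1% to 98.2%. Libraries of the same replicate number were alike here except number 4, where the values differed by more than 10 points. The next lowest dyads varied less: chr5:15967518-15967519 lay at 38.1% to 58.8% (mean 50.2%) and chr15:107016940-107016941 at 34.1% to 67.9% (mean 50.7%), in tiles whose other dyads were above 90%. In all, 21 dyads had a range of 50 points or more over the libraries, among them chr3:12405867-12405868, with 97.1%, 48.2%, 98.5% and 50% in hippocampus and 95.8%, 28.0%, 64.7% and 54.3% in hypothalamus, and chr10:95980718-95980719 at 31.7% to 100%. At 19 of the 21 the libraries numbered 1 of both tissues were within 20 points of each other, and at 18 those numbered 4, against 9 and 11 for numbers 2 and 3. Pairs of unlike number were so at 5 to 15 of the 21, most often hippocampus 4 with hypothalamus 2. These positions were picked for their range, so the counts are a description. Each dyad named here by position was listed on 1 strand only, the same strand in all 8 libraries, so the opposite strand gives no check on its level.

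Cytosines outside CG gave a measure that the rule did not use. At 163696 CA cytosines listed in all libraries the saturated tiles had levels of 2.21%, 1.86%, 4.62% and 4.91% for hippocampus 1 to 4, and of 3.14%, 1.88%, 2.26% and 3.04% for hypothalamus 1 to 4. The high values were those of hippocampus 3 and 4, the libraries with the highest CC level. CA was 3.40% ± 1.59 in hippocampus and 2.58% ± 0.609 in hypothalamus (difference -0.817 points, two-sided exact permutation test, p = 0.400, adjusted p = 0.480 over 6 comparisons, smallest possible p 0.0286). After subtraction of the CC level the values were 2.27 ± 0.724 and 1.87 ± 0.233 points (difference -0.408, p = 0.400, adjusted p = 0.480, same exact test). Among the 4 libraries with the lower CC level the difference was +0.0330 and among the 4 with the higher it was -0.848, where hippocampus 3 and 4 (2.79 and 2.98) lay above hypothalamus 1 and 4 (2.09 and 2.0). In other candidate tiles CA minus CC was 2.12 ± 0.742 points in hippocampus and 1.80 ± 0.283 in hypothalamus. In those with a CG mean under 20% it was 0.892 ± 0.839 and 0.254 ± 0.120, so the gap was not particular to saturated tiles. CA followed by A, C or T was at 3.28% over the 8 libraries and CA followed by G at 2.42%, while CT was at 1.47% and CC at 0.920%. CC means here and throughout CC followed by A, C or T. CC followed by G was left out of it and was at 1.25%.

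CA methylation was higher in classes of higher CG level only up to a point, as a description of the classes. CA minus CC averaged 0.573 points in candidates with a CG mean under 20%, 2.19 at 70% to under 80%, 2.17 at 80% to under 90%, 2.15 in candidates of mean 90% or more that were not saturated, 2.07 in the saturated tiles and 1.87 in the 1301 tiles at 95% or more in every library. In the lowest class hippocampus 3 and 4 were at 1.58 and 1.66 points and the other 6 libraries at 0.114 to 0.393. Saturated tiles exceeded all other candidates by 0.114 points (SD 0.0664, higher in 7 of 8 libraries, two-sided exact sign-flip permutation test, p = 0.0156, Benjamini-Hochberg adjusted p = 0.0182 over 7 comparisons, smallest possible p 0.00781). Within the 4 libraries of lower CC level this difference was 0.140 points and within the 4 of higher CC level 0.0873. The other candidates pool all CG levels, and only their classes under 50% averaged below the saturated tiles (1.60 at 20% to under 50%, 2.10 at 50% to under 70%). CA cytosines can share reads with the dyads that chose the tiles, so the p-value covers only the spread between libraries over fixed classes. Against the candidates of mean 80% to under 90% the difference of the saturated tiles was -0.102 points (SD 0.0670, lower in 8 of 8 libraries, p = 0.00781, adjusted p = 0.0109, same exact test), a comparison added after values were seen. With a threshold of 95% in place of 90% the first difference turned to -0.105 points. CT minus CC differed by -0.00922 points between saturated and other candidate tiles (3 of 8 libraries above, exact p = 0.156, adjusted p = 0.156). The CC level itself, subtracted here, was higher in saturated tiles by 0.0255 points (SD 0.0192, 8 of 8 libraries above, exact sign-flip permutation test, p = 0.00781, adjusted p = 0.0109). For CA minus CC the saturated-minus-other difference was 0.159 ± 0.0219 points in hippocampus and 0.0679 ± 0.0654 in hypothalamus, and the difference between the tissues had an adjusted p of 0.257 (exact permutation test).

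**Figure D5:**
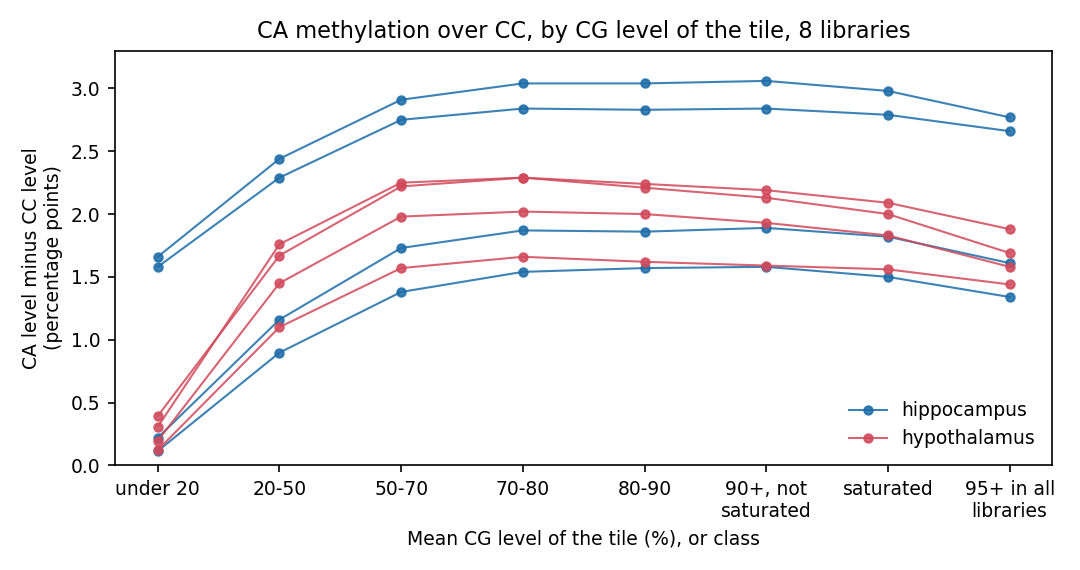
CA level minus CC level (percentage points) against the CG level class of the tile, 1 line per library, with saturated tiles and those at 95% or more in all libraries on the right. The mean of 8 libraries is 0.573 in the lowest class, 2.19 at 70% to 80%, 2.07 in saturated tiles and 1.87 in the last class, and the 2 highest lines are hippocampus 3 and 4.

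Tile by tile, CA calls were tested between the tissues in 109654 tiles, 10230 of them saturated (87.5% of the saturated tiles), with a quasi-binomial model and limma's moderated dispersion. At an adjusted p under 0.05 it called 0 tiles (0% of all tested) and 0 saturated tiles. At an unadjusted p under 0.05 there were 376 saturated tiles (3.68%), where 7.21% of all tested tiles reached it, and 374 of the 376 were higher in hippocampus, as were 7.13% of all tiles against 0.0830% higher in hypothalamus. With limma on logit levels the calls were also 0, with 209 saturated tiles (2.04%) at an unadjusted p under 0.05, where 2.42% of all tested tiles reached it. With a minimum of 300 CA calls the quasi-binomial model called 49 of 53486 tiles (0.0916%), 2 of them among 4988 saturated tiles, all higher in hippocampus. The lowest adjusted p of a saturated tile in this model was 2.02e-08 there and 0.638 with the minimum of 100, so the result depended on the call minimum. With the minimum of 100 the count also depended on single libraries: without hippocampus 1 it was 3419 tiles, 74 of them saturated, and without hippocampus 2 it was 4941, 147 of them saturated, with 3418 and 4940 of them higher in hippocampus. Without either library, hippocampus 3 and 4, which had the highest CC levels, make up 2 of the 3 hippocampus libraries left. Leaving out any of the other 6 gave 0 to 20 tiles, at most 2 of them saturated, and the part of the CC level in these counts was not tested. The saturated tile with the lowest p, singled out after its values were seen, was chr12:27280001-27281000, with CA at 6.86%, 5.31%, 8.47% and 8.83% in hippocampus and 2.46%, 1.05%, 1.29% and 2.55% in hypothalamus (389 to 1064 calls, adjusted p = 0.638 in the quasi-binomial model).

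CA levels differed widely among the saturated tiles. Among 1471 saturated tiles with 500 or more CA calls and a CC level in every library, CA minus CC had a median of 1.75 points, with 0.516 at the 5th and 4.79 at the 95th percentile. The highest were chr4:156191001-156192000 at 11.2 points, chr9:98596001-98597000 at 10.2 and chr11:37723001-37724000 at 9.53. In the first, hippocampus had a CA level of 12.5% ± 1.27 and hypothalamus one of 11.7% ± 3.12 (SD, n = 4 each), and in the second they had 10% ± 0.728 and 12.6% ± 2.37. CC stayed between 0% and 2.13% in the first in all 8 libraries, and CA was above CC in each. These tiles were picked for a high CA minus CC, so that order is a description.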

How the data were processed

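Bisulfite libraries of size-selected MspI fragments (150 to 300 bases, about 1000 ng of DNA) were read on an Illumina sequencer, per the labels' protocols. Alignment with Bowtie to build rn5 is recorded per the submitters' processing notes; its version is not given in the sources used here. For every listed cytosine of each library, the authors deposited methylated and total call counts and the level as a fraction. Each listed position had at least 10 calls, with at most 8022, and libraries listed 8239471 to 11623963 positions. Calls are not known to be independent molecules, so intervals cover counting error only.

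Both strands of a CpG were summed to a dyad and dyads to 1000-base tiles. Levels at CA, CT and CC were taken at cytosines with 10 or more calls in all 8 libraries. CA and CT included those followed by G, while CC did not. Library values were tested by exact permutation, two-sided (between tissues, 70 assignments) or exact sign flips over the 8 libraries (between classes of tile), with Benjamini-Hochberg adjustment within each family. CA counts per tile (3 or more CA positions and 100 or more CA calls in every library) were fitted by a quasi-binomial model with dispersion moderated by limma 3.58.1 in R 4.3.3, adjusted over all tested tiles. A trial on simulated counts held no shift common to a whole library, so it does not cover the dependence on single libraries. Python 3.11.15, numpy 2.4.6, pandas 2.3.3, scipy 1.17.1 and matplotlib 3.10.9 were used otherwise.

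Named tiles and dyads followed a rule: the 3 longest runs, the 3 highest tiles with 10 dyads, the 3 tiles on each side of the threshold, the 3 largest tissue differences in each direction without overlap, the 3 highest CA tiles, and the 3 lowest and 3 most variable dyads. Named outside that rule were genes, from the promoter match, and the saturated tile with the lowest p of the CA test. The tile definition, members and lists were chosen with earlier results of these data known. Alternatives were other thresholds, call minimums and dyad numbers, 1 strand, libraries left out, a replicate block, libraries split by CC level, and other models of the CA counts.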

Additional observations from a re-analysis of the deposited data

Results flagged for a closer look

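In 148 groups of 4 libraries, 8 held a library that stood apart from the other 3 by Dixon's criterion, and chance alone gives about 1 in 20 groups. That rate does not apply to the 2 tiles and the dyad given here, which were picked for a low library or a wide range. The difference in CG level of adjacent tiles between saturated and other candidate tiles was 34.5 points in hypothalamus 2 and 30.7 to 31.2 in the other hypothalamus libraries. The tile chr1:42512001-42513000 had 90% in hippocampus 3 against 94.7% to 95.5%. The tile chr20:42779001-42780000, just under the threshold, had 90% in hypothalamus 2 against 92.0% to 92.3%. The dyad chr10:95980718-95980719 had 31.7% in hypothalamus 2 against 90.5% to 100%. Among promoters, Rpl34l2 had 94.3% in hippocampus 3 against 97.4% to 98%, and Rps26-ps12 had 86.9% in the same library against 90.6% to 91.3%. C10h17orf99 had 92.8% in hippocampus 2 against 95.7% to 96.0%, and Spink10 had 94.3% in hypothalamus 2 against 96.0% to 96.3%.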

How the results depend on the processing

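Of 154 alternatives of the tested or counted results, 125 kept the direction and the side of the threshold, or stayed within the limits set for counts. The number of saturated tiles was 23334 at a threshold of 85%, 1301 at 95%, 6296 with 20 calls per dyad, 5957 with 5 or more dyads, 7030 on the plus strand alone, and 11851 to 15011 when a library was left out, highest without hypothalamus 3. The share of tiles chosen in hippocampus that were saturated in hypothalamus was 41.4% at 95% and 78.9% with 200 calls, and in the other direction 58.7% and 78.2%. Within the 4 libraries of lower CC level the tissue difference turned to 0.0393 points for CA and 0.0330 for CA minus CC, and without single libraries these ran from -1.33 to -0.314 and from -0.665 to -0.172. CA minus CC of saturated against other candidate tiles turned to -0.105 points at the 95% threshold, was 0.140 and 0.0873 within the libraries of lower and higher CC level (too few for a call) and 0.103 to 0.131 without single libraries. Against tiles of mean 80% to under 90% it was -0.111 to -0.0859 without single libraries. Without single libraries the adjacent-tile difference ran from 31.1 to 31.6 and that of incompletely read dyads from 41.1 to 42.3. The first was 20.4 points for neighbours with 3 to 10 dyads, 10.3 at a distance of 3 to 5 tiles and 32.2 with saturated neighbours kept, and the second 42.8 with 20 or more calls. Again without single libraries, the tissue differences of the saturated-minus-other and saturated-minus-80-to-90 values ran from -0.118 to -0.0645 and from -0.126 to -0.0749.

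Libraries of the same number correlated in their deviations from the tissue means at 0.171, 0.0399, 0.0995 and 0.174, which is not above 0.1 in every pair, so the libraries were not treated as paired. Each library correlated best with its own number except hypothalamus 2, which did so with hippocampus 4 (0.0589). The labels do not say whether a number marks an animal. With the replicate block the class differences were 0.114, 31.5, 41.5 and -0.102 points, at a smallest possible exact p of 0.125 over 4 pairs. The CA test called 51 tiles with the block, 3 of them saturated, 49 and 2 with 300 or more CA calls, and 0 to 4941 and 0 to 147 without single libraries (highest without hippocampus 2, then hippocampus 1). With a call minimum of 20, the tile means of Rpl34l2 (90.5%), Scn10a (93.8%), Rps26-ps12 (91.2%), Art3 (92.8%) and Spink7 (95.1%) moved by 1 SD or more, by at most 3.90 points. The promoter match gave 43 tiles with windows of 40 bases and 40 with 10 or more cytosines, against 45. At 30 calls a tile of 90% cannot be told from one of 80%, so tiles near the threshold are the least certain.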
